A study of Mus musculus with 6 samples.

Results

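The genes described here make cholesterol and fatty acids, sense sterol levels and move sterols within and out of cells. They were taken as 36 named genes, and every probe carrying 1 of those symbols in the array's annotation was used, with older symbols of Msmo1 and Sc5d counted. Of these, 32 genes had 37 probes, out of 17742 named genes and 26423 probes in all, and ACAT2, HMGCS1, CYP51 and MYLIP had no named probe. RNA of BV2, a murine microglial line that grows without limit in culture, was hybridised to 6 single-colour arrays. Microglia are macrophages that live in brain tissue. The arrays comprised 2 of cells given a higher adenine dose, 2 of cells given a lower dose and 2 of untreated control cells, all harvested after 1 h. Adenine is a nucleobase that cells can recycle into adenine nucleotides. The titles and the treatment protocol give 80 µM for the higher and 20 µM for the lower dose, whereas the sample characteristics give 250 and 80 µM, so only their order is used. The design text mentions separate cultures, but no label ties the arrays within a group to different dishes, so the errors may measure technical spread alone.

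Cholesterol is built from acetyl-CoA through mevalonate, isoprenoid diphosphates, squalene and a series of sterol ring reactions. When membrane sterol is low, the carrier Scap takes the transcription factors SREBP-1 and SREBP-2 (genes Srebf1 and Srebf2) to the Golgi, where they are cut and released to switch on synthesis genes, and the Insig proteins hold Scap back when sterol is plentiful. Oxysterols activate the liver X receptors (Nr1h2 and Nr1h3), which raise cholesterol efflux through Abca1 and Abcg1. In microglia and other macrophages, cholesterol taken up with debris leaves the lysosome through Npc2 and Npc1.

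Because synthesis genes are known as a coordinately controlled set, the sequence before the transcription start is shown for 5 of the genes described below. The first 2, Idi1 and Sc5d, had their lowest values at the higher dose, and Tm7sf2, Pmvk and Srebf2 had their highest values there. Each stretch is the 200 bases before the start, from RefSeq on GRCm38.p6. Idi1 lies at chr13:8885406-8885605, plus strand, Sc5d at chr9:42264301-42264500, minus strand, Tm7sf2 at chr19:6067851-6068050, minus strand, Pmvk at chr3:89454341-89454540, plus strand and Srebf2 at chr15:82147069-82147268, plus strand. Capitals mark CCAAT, which reads ATTGG where it lies on the other strand, the letters of the NF-Y box that often accompanies SREBP sites, and TCACNCCA on either strand, the core of the sterol regulatory element that SREBP binds.
Idi1: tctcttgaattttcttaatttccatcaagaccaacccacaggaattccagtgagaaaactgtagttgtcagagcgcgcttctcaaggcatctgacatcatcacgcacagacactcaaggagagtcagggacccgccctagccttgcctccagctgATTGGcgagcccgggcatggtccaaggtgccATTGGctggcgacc
Sc5d: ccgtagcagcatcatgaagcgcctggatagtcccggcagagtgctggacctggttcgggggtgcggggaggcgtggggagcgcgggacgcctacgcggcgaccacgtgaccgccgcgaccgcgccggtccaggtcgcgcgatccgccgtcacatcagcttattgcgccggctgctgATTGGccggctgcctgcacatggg
Tm7sf2: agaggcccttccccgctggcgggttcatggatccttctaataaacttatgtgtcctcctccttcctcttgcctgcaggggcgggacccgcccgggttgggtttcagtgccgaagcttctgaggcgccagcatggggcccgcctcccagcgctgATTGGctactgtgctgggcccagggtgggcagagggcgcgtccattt
Pmvk: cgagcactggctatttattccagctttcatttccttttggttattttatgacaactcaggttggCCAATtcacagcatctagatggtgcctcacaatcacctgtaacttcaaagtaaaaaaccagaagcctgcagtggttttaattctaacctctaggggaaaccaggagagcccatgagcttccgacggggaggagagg
Srebf2: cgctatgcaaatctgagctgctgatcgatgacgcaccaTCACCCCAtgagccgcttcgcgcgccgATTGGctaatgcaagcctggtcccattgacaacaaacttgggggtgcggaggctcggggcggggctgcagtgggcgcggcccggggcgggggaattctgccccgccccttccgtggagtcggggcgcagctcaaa
All 5 stretches held a CCAAT, on either strand. Only the Srebf2 stretch, of these 5, also held the sterol element core, with its first base at position -162 from the start. Over windows of 300 bases, 250 before and 50 after the start, a CCAAT occurred in 23 of the 36 promoters listed for 27 of the genes (63.9%), against 37.4% of all 32851 promoters. The sterol element core occurred in 3 of the 36 (8.33%), those of Msmo1, Hmgcs1 and Srebf2, against 4.36% of all promoters. The motifs were chosen after the values were known, the end of the sterol core can run into a CCAAT though it did not in these 5 stretches, and a match is a description of the sequence only. The table of promoters matched 23 of the 32 measured genes, and Fdps, Fdft1, Sqle, Stard4, Npc1, Abcg1, Scd1, Scd2 and Lpl are named only.

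The higher-dose arrays stood apart from the other 4. Over the 13211 probes above the median intensity, the correlation between them was 0.989, and the highest with an array of another group was 0.941. Of 13 microglia and macrophage markers measured, 11 lay above the median probe, as did 10287 of all 17742 named genes. So did 5 of 6 oligodendrocyte, 5 of 8 endothelial and 3 of 7 lymphocyte markers. For astrocytes, neurons and fibroblasts it was 1 of 6, 1 of 4 and 0 of 7. The microglia and macrophage markers summed to 150002 to 167422 normalized units on the higher-dose arrays, against 139636 to 142657 units in the controls. Summed oligodendrocyte markers (6 genes) read 2891 to 3154 units on the higher-dose arrays against 2378 to 2755 units in the controls, and lymphocyte markers (7 genes) 1188 to 1294 against 949.5 to 1043 units. Summed neuron markers (4 genes) read 575 to 632 units on the higher-dose arrays against 458 to 532 units in the controls, and ranges for astrocytes (6 genes), fibroblasts (7 genes) and endothelium (8 genes) overlapped. Of the markers of these 6 other cell types, 1, an astrocyte gene, read under 1 unit on any array, and 0 of 38 passed limma's test at the higher dose against control, with 11 at an unadjusted p under 0.05. Of all named genes, 11.8% passed that test and 31.2% had an unadjusted p under 0.05, and 2 of the 13 microglia markers passed. Between the doses, 2 endothelial, 1 lymphocyte and 3 microglia markers passed, where 15.2% of all named genes did. There 15 of the 38 had an unadjusted p under 0.05, against 34.2%. Lower-dose sums lay above the controls for endothelium (9074 to 9158 against 7832 to 8204 units) and neurons (571 to 620 units). They lay below for lymphocytes (837 to 909 units) and overlapped for the other lists. The part of these shifts in the results was not tested. In RNA pooled from a culture, fewer cells carrying a transcript and less of it per cell cannot be told apart.

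**Figure D1:**
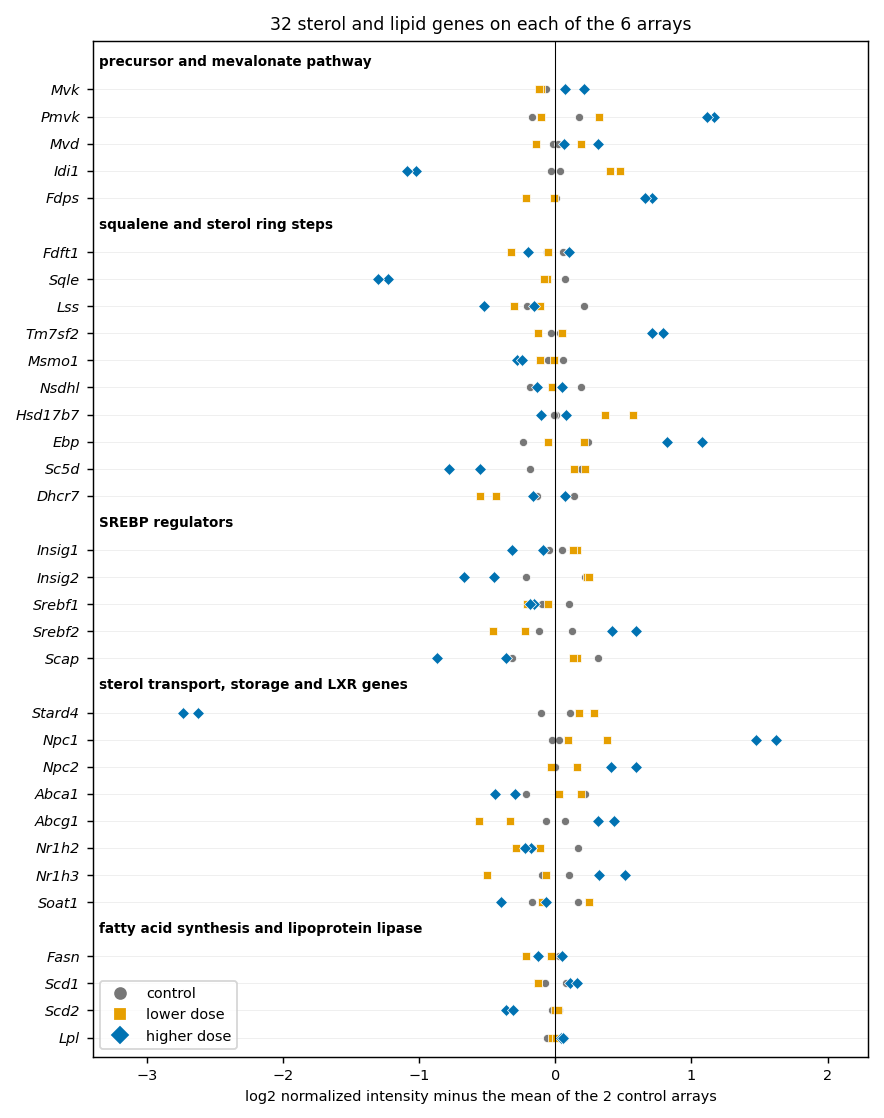
The log2 normalized intensity of 32 genes on each of the 6 arrays, minus the mean of the 2 control arrays of that gene (horizontal axis, log2 units), grouped by role; each point is 1 array. The higher-dose arrays lie farthest from the controls for Stard4, Sqle and Idi1 on the low side and for Npc1 and Pmvk on the high side.

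The first comparison asked which of these genes differed between the higher dose and control. Values are quantile-normalized, background-subtracted intensities in units, and changes are log2 differences ± SE from limma fitted to all 6 arrays (n = 2 per group), with p adjusted over all 26423 probes and a threshold of 0.05. The genes did not move as 1 block. Of the 32 genes, 3 fell (Stard4, Sqle and Idi1) and 3 rose (Npc1, Pmvk and Tm7sf2). The share of all named genes past the threshold was 11.8%, with 5.39% lower and 6.37% higher. Among genes above the median probe, where 30 of the 32 lay, it was 17.2%, with 7.7% lower and 9.55% higher. The count of 6 in 30 bright genes, or 20%, lay near that background. At an unadjusted p under 0.05 the count was 12 of 32, where 31.2% of all named genes passed. Above the median probe it was 12 of 30, where 4279 of 10287 named genes passed. The median log2 change was -0.046 over the 32 genes and -0.018 over all named genes. The arrays of the 2 groups did not overlap for 23 of the 32 genes, where 63% of all named genes were also separate. Above the median probe, 73.3% of the 30 genes were separate, where 74% of named genes were.

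In the mevalonate stage, 1 of 5 measured genes fell and 1 rose, where 5.39% of all named genes fell and 6.37% rose. Idi1 encodes the isomerase that turns isopentenyl diphosphate into its reactive partner. It read 3916 and 3737 units on the higher-dose arrays, against 8144.5 and 7758 units in the controls, and both higher-dose arrays were lower than either control. This is 2.08-fold lower (log2 -1.06 ± 0.14, limma adjusted p = 0.0223). Pmvk, which adds the second phosphate to mevalonate, read 4191 and 4053 units on the higher-dose arrays, against 2113 and 1658 units in the controls. Both higher-dose values lay above the controls, at 2.20-fold (1.14 ± 0.22, adjusted p = 0.0396). Fdps, which joins isoprenoid units into farnesyl diphosphate, read 7127 and 6871 units on the higher-dose arrays, against 4345 and 4365 units in the controls. Its arrays were separate, but at 0.68 ± 0.15 it did not pass (adjusted p = 0.0527). Over the 10 alternatives other than leaving out 1 array, the adjusted p of Fdps ranged from 0.00604 to 0.0899, so it passed in some. Mvk, the kinase before Pmvk, stood at 0.14 ± 0.15 (adjusted p = 0.598), and Mvd, the decarboxylase after it, at 0.19 ± 0.19 (adjusted p = 0.567). On arrays scaled to equal medians Mvk read -0.017.

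The probes of Pmvk disagreed. The second probe read 2239 and 2824 units on the higher-dose arrays, against 1186 and 1444 units in the controls (0.94 ± 0.21, adjusted p = 0.0539). The third was dim, with 10.7 and 26.3 units on the higher-dose arrays against 48.5 and 35.3 units in the controls (-1.30 ± 0.45, adjusted p = 0.132). With the mean of all 3 probes in place of the brightest, the Pmvk change was 0.26 (adjusted p = 0.513).

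Among the 10 measured genes from squalene to the finished ring, 1 fell and 1 rose. Of all named genes, 5.39% fell and 6.37% rose. Sqle encodes squalene epoxidase, a rate-limiting step of the late pathway. It read 4648 and 4414 units on the higher-dose arrays, against 11454 and 10346 units in the controls. The groups were apart, with Sqle 2.40-fold lower at the higher dose (-1.26 ± 0.15, adjusted p = 0.0204). Tm7sf2 encodes a sterol C14 reductase. It read 852 and 807 units on the higher-dose arrays, against 481 and 504 units in the controls, above both controls and 1.68-fold higher (0.75 ± 0.15, adjusted p = 0.043). The Tm7sf2 call was lost on values as deposited (0.69, adjusted p = 0.102) and at equal array medians (0.61, adjusted p = 0.0522). It was also lost with the replicate number as a block (adjusted p = 0.078) and with only the groups compared (adjusted p = 0.0594). The same held after the span trend described below was taken out (0.60, adjusted p = 0.056). Over the 10 alternatives other than leaving out 1 array, its adjusted p ranged from 0.00354 to 0.102. Leaving out 1 array gave log2 changes of 0.71 to 0.79.

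A pair of ring enzymes lay on opposite sides of control without passing. Ebp, the sterol isomerase, read 7065 and 5919 units on the higher-dose arrays, against 3943 and 2836.5 units in the controls (0.95 ± 0.23, adjusted p = 0.0634). Sc5d, the C5 desaturase that acts after it, read 925.5 and 1082 units on the higher-dose arrays, against 1811 and 1399 units in the controls (-0.67 ± 0.20, adjusted p = 0.0928). In both genes the groups did not overlap. Over the 10 alternatives other than leaving out 1 array, limma adjusted p ranged from 0.00314 to 0.1 for Ebp. For Sc5d it ranged from 0.0122 to 0.144, so each passed in some of them. The remaining ring genes, Fdft1 (squalene synthase), Lss (lanosterol synthase), Msmo1, Nsdhl, Hsd17b7 and Dhcr7, had log2 changes from -0.34 for Lss to -0.013 for Hsd17b7, with adjusted p from 0.312 to 0.97. Of these 6, Msmo1 alone had separate arrays, at 11166 and 11503 units on the higher-dose arrays against 13067 and 14154 units in the controls (-0.26 ± 0.15, adjusted p = 0.312). The deposited values of Msmo1 overlapped, at 12571 and 12031 units on the higher-dose arrays against 11234 and 13466 units in the controls, with a change of -0.00017 on that scale and -0.074 at equal medians.

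Of the 5 genes that encode SREBPs, Scap and Insig proteins, 0 passed limma's test, with 2 at an unadjusted p under 0.05. Of all named genes, 11.8% passed and 31.2% had an unadjusted p under 0.05. Srebf2, which drives cholesterol genes, read 2082 and 2354 units on the higher-dose arrays, against 1437 and 1703 units in the controls (0.50 ± 0.18, adjusted p = 0.146). Insig2 read 1844 and 2148 units on the higher-dose arrays, against 2528 and 3418 units in the controls (-0.56 ± 0.21, adjusted p = 0.148). Srebf2 lay above and Insig2 below all control values. Scap read 3375 and 4807 units on the higher-dose arrays, against 4965 and 7685 units in the controls, where the control arrays themselves differed widely (-0.62 ± 0.29, adjusted p = 0.234). Insig1, itself an SREBP target in many cells, read 8209.5 and 9593 units on the higher-dose arrays, against 9886 and 10571 units in the controls (-0.20 ± 0.16, adjusted p = 0.456), and 0.023 on values as deposited. Srebf1 was fairly dim, though above the median probe, at 151 and 148 units on the higher-dose arrays against 180.0 and 157 units in the controls (-0.17 ± 0.16, adjusted p = 0.53).

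Sterol carriers held the largest changes of the 32 genes in both directions. Stard4 encodes a soluble protein that carries cholesterol between membranes and is a known SREBP target. It read 259.7 and 241 units on the higher-dose arrays, against 1728 and 1489 units in the controls. Stard4 was thus 6.41-fold lower, with no overlap (-2.68 ± 0.16, adjusted p = 0.0119). Npc1, the lysosomal membrane protein that exports cholesterol, read 1478 and 1336 units on the higher-dose arrays, against 473 and 490.0 units in the controls. It was 2.92-fold higher, again with no overlap (1.55 ± 0.17, adjusted p = 0.0199). Npc2, its soluble partner in the lysosome, read 41959.8 and 47760.2 units on the higher-dose arrays, against 31636 units on both controls (0.50 ± 0.16, adjusted p = 0.114). On values as deposited Npc2 passed, at 0.83 (adjusted p = 0.05). The dimmer Npc2 probe stood at 0.090 ± 0.17 (adjusted p = 0.77).

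The efflux and receptor genes did not pass. Abca1 read 1373 and 1526 units on the higher-dose arrays, against 1614 and 2172 units in the controls (-0.37 ± 0.20, adjusted p = 0.306). Abcg1 read 2578 and 2381 units on the higher-dose arrays, against 1825 and 2011 units in the controls (0.37 ± 0.17, adjusted p = 0.216). Its second probe read 0.13 ± 0.17 (adjusted p = 0.668). The 2 exporters thus lay on opposite sides of control, each without overlap by its brightest probe. Nr1h3 read 623 and 546 units on the higher-dose arrays, against 468 and 407 units in the controls (0.42 ± 0.21, adjusted p = 0.268). Nr1h2 was near the dim end, at 61.0 and 59.2 units against 77.8 and 61.5 units in the controls (-0.20 ± 0.18, adjusted p = 0.519). Soat1, which esterifies cholesterol for storage, stood at -0.23 ± 0.23 (adjusted p = 0.555).

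**Figure D2:**
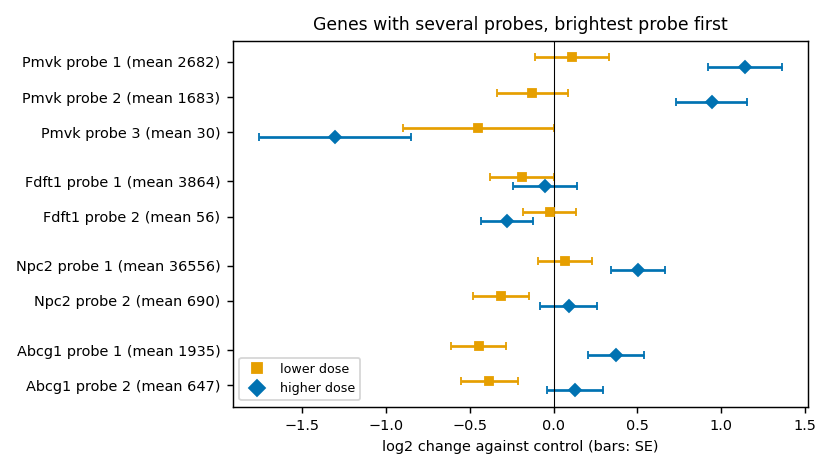
Log2 change against control (horizontal axis, bars are SE from limma, 2 arrays per group) at the lower and the higher dose for each probe of the 4 genes with several probes; the mean normalized intensity over the 6 arrays is given in units. The dimmest probe of Pmvk lies at -1.30 at the higher dose, while the brighter ones lie at 1.14 and 0.94.

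The fatty acid genes in the set and lipoprotein lipase gave 0 calls of 4 in limma, with 0 at an unadjusted p under 0.05. The shares of all named genes were 11.8% and 31.2%. Fasn, fatty acid synthase, was dim, at 118 and 133 units on the higher-dose arrays against 131 and 126 units in the controls (-0.040 ± 0.16, adjusted p = 0.9, and 0.024 on values as deposited). Scd1, a stearoyl-CoA desaturase, read 391 and 406 units on the higher-dose arrays, against 345 and 384 units in the controls (0.13 ± 0.15, adjusted p = 0.611). Its relative Scd2 lay near the top of the scale, with 49165 and 51032 units on the higher-dose arrays against 64333 and 62227 units in the controls. The Scd2 arrays were separate, but near the ceiling the size is uncertain, at -0.34 ± 0.14 (adjusted p = 0.192) after normalization and -0.10 (adjusted p = 0.735) on values as deposited. Lpl, which releases fatty acids from lipoproteins, was deposited at 65483 and 65482 units at the higher dose, close to the highest value on any array (65489), against 52483 and 59998 units in the controls. The higher-dose values of Lpl were thus limited by the top of the scale, and its normalized values overlapped between the groups. No fold is given, and the fitted change did not pass (adjusted p = 0.862).

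The lower dose was set against control in the same way. Of the 32 genes, 0 rose and 0 fell in limma, where 0.0169% of all named genes passed (0.0113% higher and 0.00564% lower), and 4 genes had an unadjusted p under 0.05. That is 12.5% of the 32, set against 5.73% of all named genes. Above the median probe it was 4 of 30, where 414 of 10287 named genes had such a p. The arrays of the 2 groups were separate for 13 of the 32, where 34.9% of all named genes were. Above the median probe, 40% of the 30 genes and 35.6% of named genes were separate. Idi1 read 10525 and 11032 units on the lower-dose arrays, against 8144.5 and 7758 units in the controls (0.44 ± 0.14). Hsd17b7, a ketoreductase of the ring stage, read 1267 and 1462 units on the lower-dose arrays, against 988.5 and 979 units in the controls (0.47 ± 0.16). Both lay above the controls on both arrays. Dhcr7, the last reductase, read 1386 and 1502 units on the lower-dose arrays, against 1851 and 2232 units in the controls (-0.49 ± 0.18), and Abcg1 read 1518 and 1299 units against 1825 and 2011 units (-0.45 ± 0.17). Adjusted p was 0.764 for all 4. Stard4, at 1951 and 1809 units at the lower dose against 1728 and 1489 units in the controls, stood at 0.23 ± 0.16 (adjusted p = 0.795), and Sqle at -0.072 ± 0.15 (adjusted p = 0.923). Npc1 read 512.5 and 626 units on the lower-dose arrays, against 473 and 490.0 units in the controls (0.23 ± 0.17, adjusted p = 0.804).

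The third comparison set the higher dose against the lower. It shares its higher-dose arrays with the first comparison, so the genes recur in part by construction. Of the 32 genes, 4 fell and 6 rose, where 15.2% of all named genes passed (7.5% lower and 7.74% higher), and 22.2% of those above the median probe (10.6% lower and 11.5% higher). At an unadjusted p under 0.05 the count was 16 of 32, where 34.2% of all named genes passed. The arrays were separate for 24 of 32, where 61.9% of all named genes were. Above the median probe, 16 of 30 had such a p, where 4690 of 10287 named genes did. There 80% of the 30 genes and 73.7% of named genes were separate. On values as deposited 5 fell and 1 rose, and of the 6 rises only Npc1 passed there, with Pmvk, Fdps, Tm7sf2, Srebf2 and Abcg1 missing the threshold. Stard4 was 7.51-fold lower (-2.91 ± 0.16, limma adjusted p = 0.013), Idi1 2.82-fold lower (-1.49 ± 0.14, adjusted p = 0.018), Sqle 2.29-fold lower (-1.19 ± 0.15, adjusted p = 0.0187) and Sc5d 1.80-fold lower (-0.85 ± 0.20, adjusted p = 0.0499). Idi1 showed a larger gap here than against control, with its lower-dose arrays above both controls.

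The 6 genes that were higher included Npc1 (2.48-fold, 1.31 ± 0.17, adjusted p = 0.0201), Pmvk (2.04-fold, 1.03 ± 0.22, adjusted p = 0.0427) and Tm7sf2 (1.73-fold, 0.79 ± 0.15, adjusted p = 0.0345). Fdps read 7127 and 6871 units on the higher-dose arrays, against 3756.5 and 4316 units on the lower-dose arrays (0.80 ± 0.15, adjusted p = 0.0343). Abcg1 read 2578 and 2381 units on the higher-dose arrays, against 1518 and 1299 units on the lower-dose arrays (0.82 ± 0.17, adjusted p = 0.0378), and its second probe stood at 0.51 ± 0.17 (adjusted p = 0.11). Srebf2 read 2082 and 2354 units on the higher-dose arrays, against 1338 and 1142 units on the lower-dose arrays (0.84 ± 0.18, adjusted p = 0.0436). By normalized values of the brightest probe, Abcg1 and Srebf2 had lower-dose values below both controls and higher-dose values above them. As deposited, Srebf2 read 1440 and 1302 units at the lower dose, overlapping the controls at 1340 and 1756 units. The second Abcg1 probe, at 745 and 734 units at the higher dose, overlapped the controls at 624 and 735 units. Insig2, at 1844 and 2148 units on the higher-dose arrays against 3456 and 3489.9 units on the lower-dose arrays, did not pass (-0.80 ± 0.21, adjusted p = 0.0615).

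**Figure D3:**
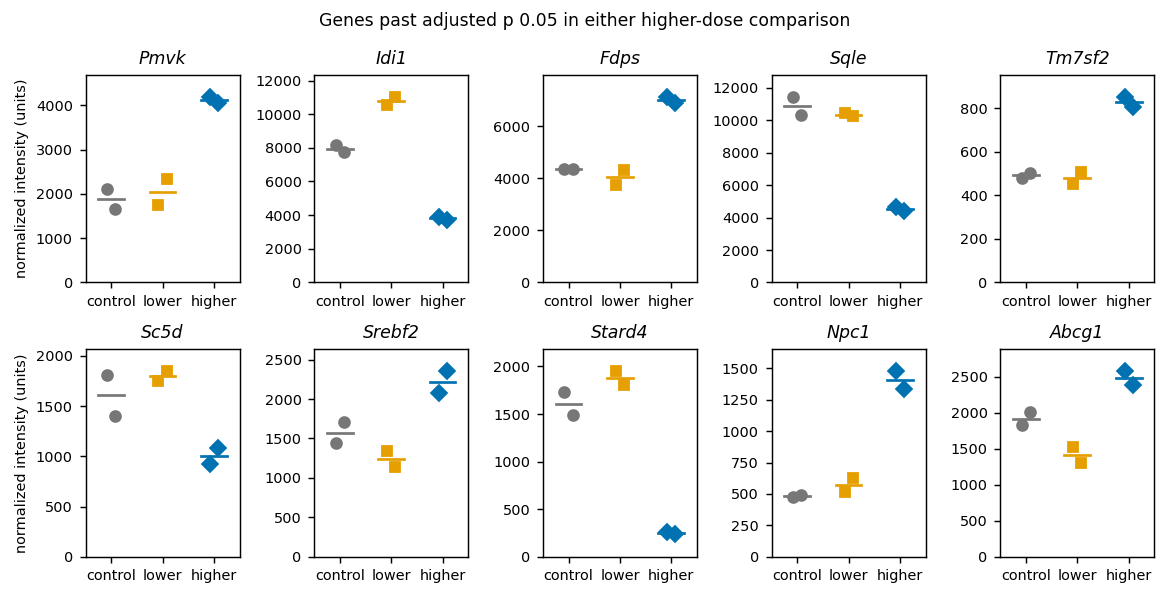
Normalized intensity in units (vertical axes, starting at 0) of the 10 genes past adjusted p = 0.05 in at least 1 of the 2 higher-dose comparisons, on each array (points) with the group mean (lines). Stard4 reads 259.7 and 241 units at the higher dose and 1489 units or more on every other array.

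Other genes of the same pathways, from lists drawn up beside the 32 genes, were read from the same fit of the higher dose against control. The lists were chosen with earlier results of these data known, so their shares are descriptions only. In fatty acid and glycerolipid synthesis, 0 of 33 measured genes rose and 8 fell, or 24.2%, where 5.39% of all named genes and 7.7% of those above the median probe fell. The median log2 change of this list was -0.19. On values as deposited 2 of the 33 passed, and on arrays scaled to equal medians 6. Gpam, the mitochondrial enzyme that starts glycerolipid synthesis, read 69.7 and 93.8 units on the higher-dose arrays, against 365 and 310.5 units in the controls, 4.16-fold lower (-2.06 ± 0.22, adjusted p = 0.0199). Elovl5, a fatty acid elongase, read 10706 and 10199.7 units on the higher-dose arrays, against 21273 and 21383 units in the controls (-1.03 ± 0.14, adjusted p = 0.0231). Hacd3, a dehydratase of the elongation cycle (-1.03 ± 0.15, adjusted p = 0.0247, by the brighter of 2 probes, the other at -1.055 and adjusted p = 0.083), and Acss2, which makes acetyl-CoA from acetate (-1.02 ± 0.18, adjusted p = 0.0327), also fell. The other falls in the list were Idh1, Fads1, Acsl3 and Acsl5, from -1.16 to -0.81, and these were named after their values were seen. A second Acsl3 probe missed the threshold (-0.95, adjusted p = 0.0504).

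In the mevalonate and sterol synthesis list, 0 of 17 genes rose and 2 fell (11.8%). Over all named genes 6.37% rose and 5.39% fell. Lbr, a nuclear envelope protein that shares the C14 reductase activity of Tm7sf2, read 7575 and 7903 units on the higher-dose arrays, against 14797 and 16032 units in the controls (-0.99 ± 0.15, adjusted p = 0.0269). Its other probe stood at -2.38 ± 0.17 (adjusted p = 0.0163), so the 2 reductase genes went opposite ways. Pdss2, of coenzyme Q synthesis, fell on the brighter spot (-0.94 ± 0.18, adjusted p = 0.0381), whereas the dimmer stood at 0.42 (adjusted p = 0.14). Tmem97, a sterol-regulated membrane protein, stood at 1.02 ± 0.26 (adjusted p = 0.0699), and Rce1, a protease of prenylated proteins, at 0.76 ± 0.19 (adjusted p = 0.0651), with its other probe at -0.79.

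In the list of SREBP processing and sterol-regulated degradation, 1 of 14 fell (7.14%) and 0 rose. The shares of all named genes were 5.39% lower and 6.37% higher. Rnf145, a sterol-responsive ubiquitin ligase, stood at -0.73 ± 0.15 (adjusted p = 0.0416) on the brighter of its probes, and at 0.026 (adjusted p = 0.931) on the other. Sec23a, a COPII coat subunit, Pgrmc1 and Erlin2 were next by p, at -0.86, 0.61 and -0.58, with adjusted p from 0.0742 to 0.0991.

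In sterol uptake, transport, storage and efflux, 2 of 30 rose (6.67%) and 1 fell (3.33%). That lay near or below the 6.37% and 5.39% of all named genes, and below the 9.55% and 7.7% of those above the median probe. Lipa, the lysosomal acid lipase that frees cholesterol for export by Npc2 and Npc1, read 9523 and 10727 units on the higher-dose arrays, against 3663 and 3349 units in the controls, 2.89-fold higher (1.53 ± 0.23, adjusted p = 0.0261). Tspo, an outer mitochondrial membrane protein that binds cholesterol, rose 2.69-fold (1.43 ± 0.19, adjusted p = 0.0215). Osbpl2, an oxysterol-binding-protein relative, read 3169 and 4008 units on the higher-dose arrays, against 8705 and 8553 units in the controls (-1.28 ± 0.17, adjusted p = 0.0224). Osbpl9, of the same family, stood at -0.77 ± 0.18 (adjusted p = 0.0585), and its dimmer probe at -0.19 ± 0.16 (adjusted p = 0.505).

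In the liver X receptor and oxysterol list, 1 of 15 rose and 1 fell (6.67% each), near the 6.37% and 5.39% of all named genes. Sult2b1, a sterol sulfotransferase, read 287 and 267 units on the higher-dose arrays, against 147 and 137 units in the controls (0.96 ± 0.15, adjusted p = 0.0269). Mertk, a receptor for the uptake of apoptotic cells and a known liver X receptor target, read 351 and 358 units on the higher-dose arrays, against 1030.4 and 970.3 units in the controls (-1.50 ± 0.17, adjusted p = 0.0199). Ncor1, a corepressor, and Tgm2 did not pass, at -0.74 and 0.51 (adjusted p = 0.0667 and 0.0873). At the lower dose against control, 0 of the 109 genes of these 5 lists passed in limma, with 2 at an unadjusted p under 0.05, where 0.0169% of all named genes passed and 5.73% had an unadjusted p under 0.05. At that unadjusted p the 109 genes gave 43 at the higher dose against control and 47 between the doses, where 31.2% and 34.2% of all named genes did. Of the 10287 named genes above the median probe, 4279 and 4690 did, so the counts of these lists show no excess over bright genes.

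**Figure D4:**
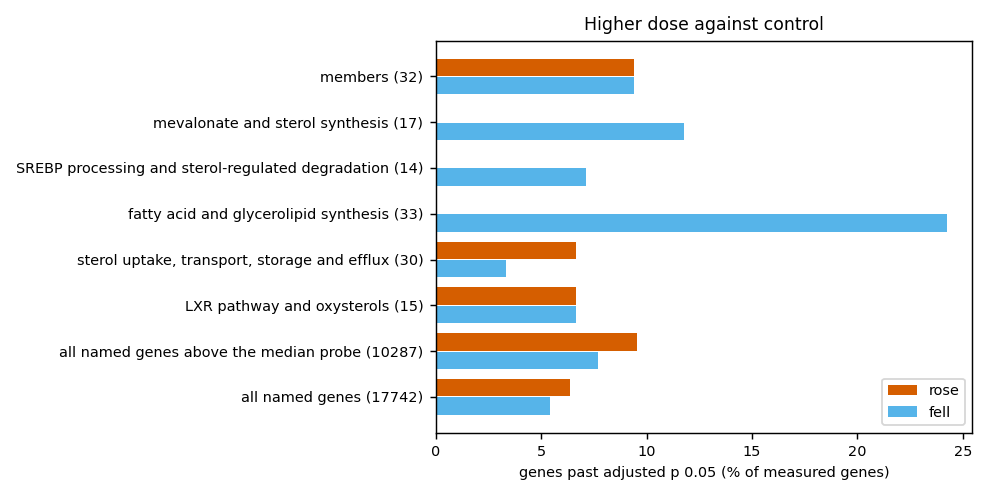
Share of measured genes (horizontal axis, %) that rose or fell past adjusted p = 0.05 at the higher dose against control, for the 32 genes (members), 5 further lists without those genes, and all named genes, with the number measured in brackets. The fatty acid and glycerolipid list has 24.2% lower and 0% higher, against 5.39% lower and 6.37% higher over all named genes. Among named genes above the median probe the shares are 7.7% and 9.55%. The lists were chosen with earlier results of these data known.

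Gene span, the length from a gene's start to its end in RefSeq, was set beside the higher-dose change. Spearman's rho between span and the higher-dose log2 change was -0.0315 over the 32 genes and -0.196 over 17710 named genes, as descriptions, since genes on the same arrays are not independent. The median spans were 18.7 and 19.3 kb. With this trend removed from each array, Stard4 stood at -2.69, Sqle at -1.26, Idi1 at -1.17 and Npc1 at 1.71, all past the threshold.

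Leaving out 1 array ended calls. Without either control array or either higher-dose array, 0 of the 32 genes passed in the higher-dose comparison, and without either lower-dose array 4 did (Stard4, Sqle, Idi1 and Npc1). Between the 2 doses, 0 of the 32 genes passed without any 1 of the 6 arrays, against 10 with all. These fits have 2 residual degrees of freedom in place of 3. Over all 16 alternatives, the log2 change stayed between -2.79 and -2.57 for Stard4, -1.34 and -1.15 for Sqle, -1.17 and -0.99 for Idi1 and 1.39 and 1.71 for Npc1, with a highest adjusted p of 0.107, 0.121, 0.128 and 0.121.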

How the data were processed

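RNA of BV2 cells was turned into Cy5-labelled cDNA and read on Phalanx OneArray chips of 1 colour, per the labels' protocols. The authors deposited spot intensity in linear units, some below 0, so background had been subtracted. The submitters' processing notes name RMA. Since the deposited medians span 125 to 170 units, the values were treated as not yet normalized between arrays. The scanner and detection flags were not given in the sources used here.

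Values were quantile-normalized, raised to a floor of 1 and put on the log2 scale. Before normalization, 196 to 315 probes an array lay below 1 unit, and 10 to 39 reached 65000 units. limma 3.58.1 in R 4.3.3 fitted a mean for each group to all 6 arrays, leaving 3 residual degrees of freedom, with two-sided moderated tests and Benjamini-Hochberg adjustment over every probe. On simulated data with known changes, the fit returned the sizes that were put in but called few of the smaller ones. Far fewer probes were changed there than passed at the higher dose, so the share called does not carry over to these arrays. A gene that did not pass may still differ. The number of arrays, 2 per group, limits the precision. Titles gave the groups. Of 26423 probes, the old platform annotation gives 1 symbol to 20377 and none to 6046. In RefSeq for GRCm38.p6, the symbols of 18213 probes matched as written and those of 2126 through an older name, and those of 38 were left unchanged. A gene was read from its brightest probe on average.

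The genes and lists were chosen with earlier results of these data known. Genes past the threshold in any comparison were named, as were the regulators, carriers and fatty acid genes, and up to 4 genes of smallest p in each further list. The alternatives were deposited values without normalization, arrays at equal medians, log2(value + 16), probes above the median alone, the replicate number as a block, an intensity-dependent prior, weights for arrays, a fit of the compared groups alone, 1 array left out, all probes of a gene averaged, and a lowess trend in log2 gene span subtracted from every array. Plots were made in Python 3.11.15 (matplotlib 3.10.9).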

Additional observations from a re-analysis of the deposited data

How the results depend on the processing

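Of the 32 genes, 6 passed at the higher dose against control. The count was 12 among probes above the median and 10 with a trended prior. The 3 genes that rose became 5 with log2(value + 16), 7 among probes above the median, 6 with a trended prior, 5 with array weights and 1 with only the groups compared, and the 3 that fell became 5 among probes above the median. Leaving out each array gave 0 to 4 genes (0 to 1 higher, 0 to 3 lower). Between the doses, the count of 10 (6 higher, 4 lower) became 6 without normalization (1 higher), 16 among probes above the median (7 lower), 0 with only the groups compared, and 0 without any 1 array, fits with 1 residual degree of freedom fewer. The labels do not say whether replicate numbers pair the arrays. The differences of replicate 1 from replicate 2 correlated at 0.033 between lower dose and control and 0.31 between higher dose and control. Between the doses they correlated at -0.23. These values do not decide whether arrays of the same number were handled together. With the replicate number as a block, 0 genes passed against control (0 higher, 0 lower) and 4 between the doses (1 higher). At the lower dose, 0 passed under all 16 alternatives. Without normalization, the median of all probes moved to 0.22 for the lower dose against control and to -0.25 for the higher against the lower dose, and the lists of sterol synthesis, SREBP processing and fatty acid synthesis had 1, 0 and 2 genes past the threshold. Small changes of genes that did not pass took the other sign in some fits of the higher dose against control. Without normalization, Nsdhl read 0.022, Insig1 0.023 and Fasn 0.024, and Mvk read -0.017 at equal medians. With the span trend removed, Fdft1 read 0.090, Nsdhl 0.10, Hsd17b7 0.033, Dhcr7 0.042 and Fasn 0.0012. Leaving out each array gave -0.20 to 0.10 for Fdft1, -0.23 to 0.14 for Nsdhl, -0.11 to 0.081 for Hsd17b7, -0.18 to 0.088 for Dhcr7, -0.13 to 0.046 for Fasn and -0.014 to 0.11 for Lpl. The cause was not tested for any of these. Fasn and Nr1h2 did not lie above the median probe, while Nsdhl and Srebf1 did, at 136 to 176 and 145.5 to 180 units. Lpl was deposited at 65483 and 65482 units at the higher dose, past 65000 units. Scd2 was deposited at no more than 64663 units on any array. The part of background or of the ceiling in these changes was not tested.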
